A study of Bos taurus with 28 samples.

Results

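Nephron genes are genes that the kidney uses to filter blood and to recover salts, sugars, amino acids and water from the filtrate. A list of 37 such genes was followed across the 28 liver arrays of the series, and 26 of them had a probe set with exactly 1 gene symbol. The list was selected on one array, the one labelled E2P4T replication 5, because kidney genes had been seen to be high there, so the levels on that array chose the members and are given as a description without a test. Each gene is given by 1 probe set, the one whose log2 signal averaged highest over the 28 arrays. The other 11 genes (NPHS1, WT1, PODXL, LRP2, TMEM27, KCNJ1, CALB1, KL, AQP2, PAX2 and ESRRB) had no such probe set and were not analysed here, which leaves the glomerulus without any member.

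The nephron works in sequence. The glomerulus filters plasma, the proximal tubule takes back glucose, phosphate, amino acids, bicarbonate and filtered proteins, the thick ascending limb and the distal convoluted tubule take back sodium chloride, and the collecting duct sets the final sodium, water, acid and ammonium content of the urine. Most of these steps rest on membrane transporters that are restricted to 1 segment, whereas the parenchyma of the liver consists mainly of hepatocytes, which secrete plasma proteins and make urea.

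The samples were liver biopsies of ovariectomized, non-lactating female Holstein cows, and all groups, controls included, lacked ovaries. There were 7 arrays after 14 days with an ear implant releasing estradiol (E2T), 7 with vaginal progesterone devices (P4T), 7 with both (E2P4T) and 7 without hormone (CO). The route of progesterone follows the methods, since the source labels of P4T and E2P4T call it intradermal. The same cows passed through the treatments in a Latin square, but the labels give neither cow nor period, so p-values between groups measure only the spread between arrays, some of which share a cow. Values are log2 of the deposited MAS 5.0 signal intensity of the Affymetrix Bovine GeneChip, the values come without detection calls, and precision is limited by how many arrays each group has.

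The label of E2P4T replication 5 was first set against liver markers. Of 20 hepatocyte markers on the array (among them albumin, apolipoproteins, clotting and urea cycle genes), 18 were below all of the other 27 arrays (10.3% of all probe sets were). The mean log2 signal of the 20 was 9.38 on E2P4T replication 5, against 14.63 to 15.54 on the others. The exceptions were TAT, which was above the median of the other 27 (9.50 against 7.60), and HP, which was inside their range (8.92 against 7.69 to 16.79). This array also had the highest median over all 24016 probe sets, 0.22 log2 units above the next array (the other 27 lay between 7.48 and 8.78). Its mean of the hybridisation spikes was also the highest, 18.60 against 13.41 to 17.67, a value of 17.67 being that of P4T replication 4. Most of the liver markers are thus low on the array labelled E2P4T replication 5, and group comparisons below leave it out. In bulk tissue, fewer cells of a type and less RNA per cell cannot be told apart. Whether the sample under this label was liver was not tested. The paper left out an E2P4T array and a P4T array as signal outliers and analysed more CO and E2T arrays than are labelled here. After that exclusion it analysed 7 P4T and 7 E2P4T arrays, as many as are labelled here. E2P4T replication 5 and P4T replication 4 may therefore be among the arrays it kept. The paper does not say which arrays it left out, so the arrays fitted below may not be the study's own set. P4T replication 4 stays in the fit.

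On the array labelled E2P4T replication 5, 21 of the 26 nephron genes were above every one of the other 27 arrays and none was below all of them. Over all 24016 probe sets, 31.3% were above and 10.3% below all other arrays. The difference between this array and the median of the other 27 had a median of 4.89 log2 units over the members, compared with 0.76 over all probe sets, and 24 members exceeded the shift of all probe sets. The shift of all probe sets depends on scaling, since it was 0.10 after quantile normalization and -0.54 after median centring. Relative to it, the members' median was 4.14 as deposited, and 18 members stayed above all other arrays under each of the 3 scalings. The share of all probe sets above all other arrays, 31.3%, is for the deposited scaling only and was not taken for the others. Within its own array, 12 members lay above the 90th percentile of the signals on E2P4T replication 5, whereas 1 member (RHBG) had a median above that percentile in the other 27. For 20 members the median of the other arrays was no higher than the brightest value of control probe sets without a target (trpn, described further on), so their differences are not exact folds of a transcript.

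**Figure D1:**
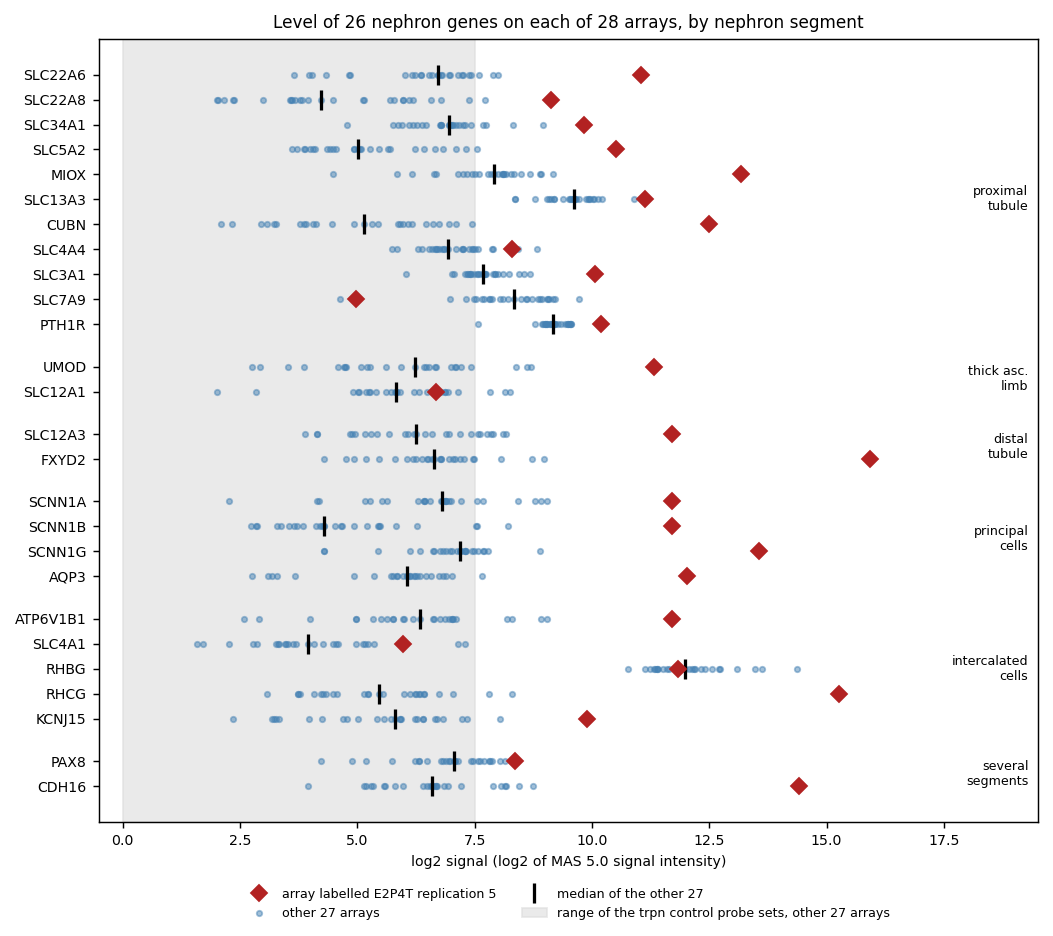
Log2 signal of the 26 nephron genes, ordered by nephron segment, with the array labelled E2P4T replication 5 as a diamond, the other 27 arrays as points and their median as a bar. The grey band is the range of the trpn control probe sets on the other 27 arrays (0 to 7.50), and 21 diamonds lie to the right of every point of their gene.

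The proximal tubule had 11 members on the array, of which 9 were above all other arrays, with a median difference of 2.88. The largest difference was that of CUBN, cubilin, the receptor that takes up filtered proteins and vitamin B12 complexes, which had a log2 signal of 12.49 on E2P4T replication 5, against a lowest of 2.10, a median of 5.14 and a highest of 7.45 on the other 27. MIOX, the oxygenase that begins myo-inositol breakdown, reached 13.17, against 4.49, 7.91 and 9.18. On this array the 2 genes thus stood 5.03 and 3.99 above the highest of the others. The transporters of glucose (SLC5A2, SGLT2) and of organic anions (SLC22A6, OAT1, and SLC22A8, OAT3) differed by 5.50, 4.34 and 4.90. SLC22A6 and SLC22A8 are adjacent protein-coding genes on chromosome 29 in the RefSeq annotation of ARS-UCD2.0, and both were above all other arrays.

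Smaller differences were seen for SLC34A1, the phosphate cotransporter NaPi-IIa (2.88), SLC3A1, the heavy subunit of the cystine transporter (2.40), SLC13A3, a dicarboxylate transporter (1.53), and PTH1R, the parathyroid hormone receptor (1.01). Of these, SLC13A3 was 0.25 above the highest of the others (11.14 against 10.89), and neither it nor PTH1R was above all others after median centring, where PTH1R turned negative (-0.26). SLC4A4, the sodium bicarbonate cotransporter, was inside the range of the others, 8.31 against 5.75 to 8.82, and its difference of 1.38 turned to -0.15 after quantile normalization. The member that went the other way was SLC7A9, the light subunit that pairs with SLC3A1. Its log2 signal was 4.98 on E2P4T replication 5, against a lowest of 4.63, a median of 8.34 and a highest of 9.72. Only P4T replication 4 was lower, so the 2 subunits of 1 transporter differed in opposite directions on this array.

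In the thick ascending limb, UMOD, which encodes uromodulin, the main protein of normal urine, had a log2 signal of 11.33 on E2P4T replication 5, against 2.77, 6.24 and 8.70 (lowest, median and highest of the other 27). SLC12A1, the sodium-potassium-chloride cotransporter NKCC2 of the same segment, had 6.67 against 2.00, 5.83 and 8.25, and 8 of the other arrays were higher. The difference of SLC12A1, 0.84, became negative after quantile normalization (-0.49) and median centring (-0.62). However, its other probe set, which the rule did not choose because it was dimmer on average, had 7.94 on E2P4T replication 5, against 0.85 to 6.71 on the others, and so lay above all of them.

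Both members that the list placed with the distal tubule, a placing not checked in these data, were above all other arrays. SLC12A3, the thiazide-sensitive sodium chloride cotransporter, had 11.70 on E2P4T replication 5, against 3.88, 6.26 and 8.18. FXYD2, the gamma subunit that modulates the sodium-potassium pump, had 15.92, against 4.30, 6.64 and 8.98 and so lay 6.94 above the highest of the others. Among the chosen probe sets this was the highest member signal of the array, at the 99.8th percentile of all its probe sets, whereas the median percentile of FXYD2 was 36.4 on the other 27.

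In principal cells of the collecting duct, all 4 members were above all other arrays, with differences between 4.89 and 7.42. They comprise the 3 subunits of the epithelial sodium channel, the target of aldosterone, and AQP3, a basolateral water channel. SCNN1A, the alpha subunit, had 11.70 on E2P4T replication 5, against 2.26, 6.82 and 9.04. SCNN1B, the beta subunit, had 11.71, against 2.74, 4.29 and 8.20. SCNN1G, the gamma subunit, had 13.55, against 4.29, 7.18 and 8.90. The 3 subunits were thus all above every other array, and SCNN1B and SCNN1G are adjacent genes on chromosome 25 in the same annotation. AQP3 differed by 5.96.

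The list placed 5 members, with differences from -0.14 to 9.80, with the intercalated cells, which secrete acid or base and move ammonium. Segments were assigned beforehand and were not checked in these data. RHCG, an ammonia transporter, had 15.25 on E2P4T replication 5, against 3.07, 5.45 and 8.30, which put it 6.96 above the highest of the others. RHBG, its basolateral relative, which in rodents is also known from perivenous hepatocytes, had 11.84, against 10.76, 11.98 and 14.36. RHBG was thus in the middle of the other arrays, with 15 of them higher. Its other probe set was below all other arrays (8.06 against 9.22 to 10.92), as was the chosen one after median centring, whereas after quantile normalization the chosen one differed by 0.13. ATP6V1B1, the B1 subunit of the proton pump, differed by 5.38, and KCNJ15, an inward rectifier potassium channel, by 4.10, both above all other arrays. SLC4A1, the anion exchanger shared with red blood cells, had 5.97, against 1.58, 3.95 and 7.30, and 3 other arrays were higher. None of the 4 erythroid markers on the array was above or below all others.

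Among members of several segments, CDH16, the kidney-specific cadherin, had 14.42 on E2P4T replication 5, against 3.95, 6.60 and 8.75. PAX8, a transcription factor of the renal lineage, had 8.35, against 4.22, 7.05 and 8.15. PAX8 was 0.20 above the highest other array, the smallest margin of the 21 members, and was not above all others after quantile normalization (difference of -0.08) or median centring. The nearest member outside was SLC4A4, at 0.51 below the highest.

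Among the members, 7 had another probe set, and these did not always give the same level. Of the 7 other probe sets, 6 were above all other arrays and 1, that of RHBG, was below all. For CDH16 the other probe set had 16.09 on E2P4T replication 5, against 2.54 to 9.06, a difference of 10.96. For SCNN1G it had 16.14, against 3.93 to 9.21, a difference of 10.26. SLC34A1 differed by 7.17 at the probe set not chosen and by 2.88 at the chosen one, and PAX8 by 4.52 and 1.30. Choosing the brighter probe set over all arrays therefore gave the smaller difference for these 4 genes, while KCNJ15 had 3.41 at the other and 4.10 at the chosen one.

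A list of 50 other kidney genes, of which 16 were on the array, was set beside the members. It was written with earlier results of these arrays known. Of these 16, 13 were above all other arrays (31.3% of all probe sets were), with a median difference of 3.63. They were led by HSD11B2, which inactivates cortisol in the collecting duct (10.02), AVPR2, the vasopressin receptor (8.00), ATP6V0A4, a proton pump subunit (7.03), and KLK1, tissue kallikrein (6.36). GATM, which makes the creatine precursor and is also a liver enzyme, was below all others (-3.32). The mean log2 signal of the 16 genes was 10.81 on E2P4T replication 5, against 6.09 to 8.00 on the others, and that of the 26 members was 10.88, against 5.99 to 8.07.

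**Figure D2:**
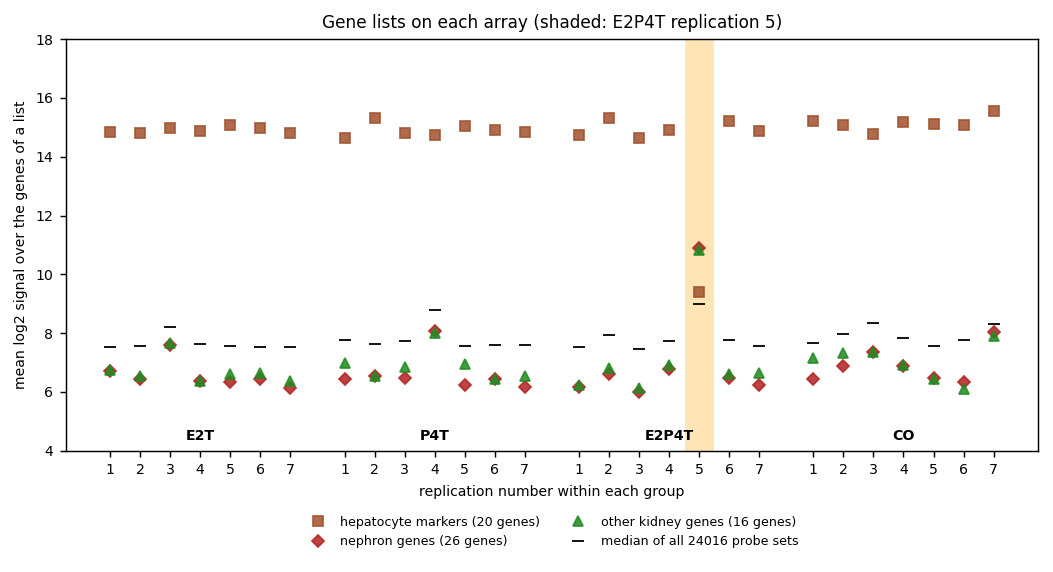
Mean log2 signal of the 26 nephron genes, 16 other kidney genes and 20 hepatocyte markers on each array, by group, with the median of all probe sets as a dash. On E2P4T replication 5 (shaded) the hepatocyte mean is 9.38 and the nephron mean 10.88, and on each of the other 27 arrays the hepatocyte markers are the highest of the 3 lists.

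Markers of other tissues served as further points of comparison. Of 6 genes of cholangiocytes, the cells that line bile ducts, most of which tubular epithelium also expresses, 5 were above all other arrays (SPP1, MUC1, KRT19, EPCAM and CFTR, with differences of 9.98, 5.71, 4.34, 3.59 and 1.15). The counts above all others were 2 of 8 for adrenal cortex, 2 of 6 for skeletal muscle, 2 of 4 for adipocytes and 2 of 6 for pancreas. They were 1 of 4 for lung, 1 of 3 for intestine, 2 of 5 for endothelium, 0 of 5 for leukocytes and 0 of 4 for erythroid cells. Over all probe sets, 31.3% were above and 10.3% below all others. Leukocyte markers were below all others in 3 of 5 genes and had a median difference of -1.37. Apart from cholangiocytes and hepatocytes, the lists of other tissues had median differences between -1.59 for intestine and 2.32 for adipocytes, against 4.89 for the nephron genes. The part of another tissue in the levels on this array was not tested beyond these lists.

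**Figure D3:**
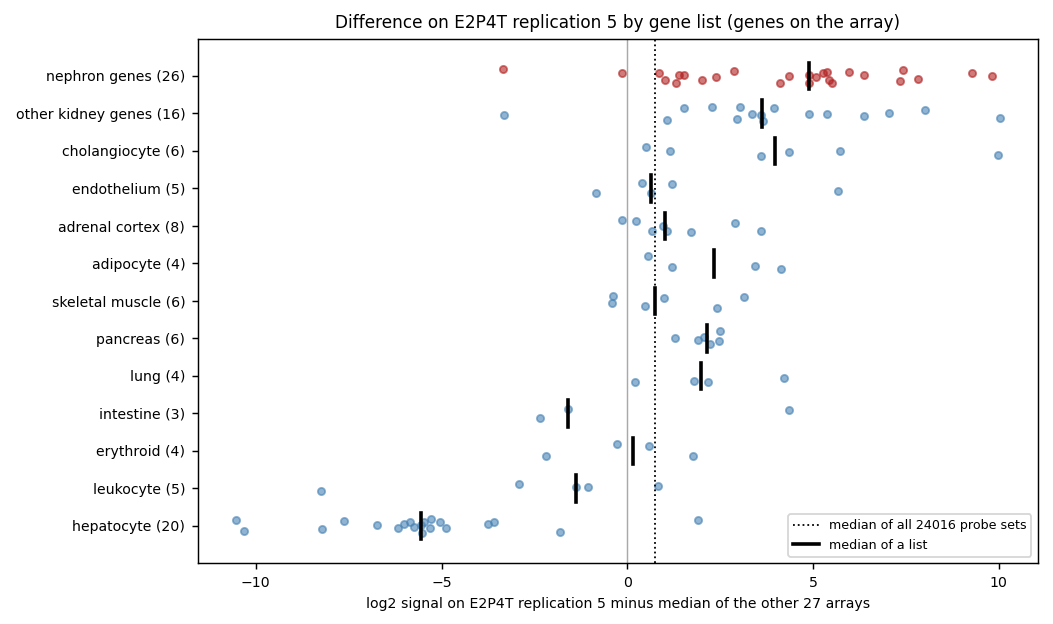
Log2 signal on the array labelled E2P4T replication 5 minus the median of the other 27 arrays, for each gene (points) of 13 lists, with the list median as a bar and the median of all probe sets (0.76) as a dotted line. The medians are 4.89 for the nephron genes, 3.63 for other kidney genes, 3.97 for cholangiocyte genes and -5.55 for hepatocyte markers.

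On the other 27 arrays most nephron genes were dim. The 3 trpn control probe sets, which target a bacterial transcript that is not part of the spike-in kit named in the methods, had log2 signals from 0 to 7.50 with a median of 3.49 and are taken here as the level of a probe set without its target. The median over the 27 arrays was within that range for 20 of the 26 members and above it for 6 (RHBG, SLC13A3, PTH1R, SLC7A9, MIOX and SLC3A1). RHBG was the brightest, with a median percentile of 92.1 among all probe sets. The next were SLC13A3 and PTH1R with 72.3 and 67.6, then SLC7A9 and MIOX with 56.5 and 52.9. All 26 medians were above the trpn median, the lowest being 3.95 for SLC4A1, and the mean of the members was above that of the trpn controls on each of the 27 arrays. For the 20 dim members, a single level within the range of the controls cannot be told from no transcript.

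The spread between arrays differed among the members. PTH1R had an SD of 0.38 over the 27 arrays and SLC13A3 of 0.55, whereas SLC22A8 had 1.70 and UMOD 1.61, compared with a median SD of 0.83 over all probe sets. The brightest member, RHBG, had 0.84, and SLC7A9 and MIOX had 0.99 and 1.03. The highest of the 27 values was on P4T replication 4 for 11 members and on CO replication 7 for 9, with 6 on other arrays. P4T replication 4 had the highest median of all probe sets among the 27 (8.78), and CO replication 7 the smallest distance of the members' mean to that median (-0.25, against -1.49 to -0.61 on the other 26). On P4T replication 4 that distance was -0.71, below the -0.61 of E2T replication 3, and this array was also the highest of the 27 for the adrenal cortex, adipocyte, intestine and other kidney lists, so its high levels were not limited to nephron genes. The members' median log2 fold changes below are also given without CO replication 7 and, for P4T, without P4T replication 4.

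By group, the mean over the 26 members was 6.14, 6.42 and 7.61 (lowest, median and highest array) in E2T, 6.18, 6.44 and 8.07 in P4T, 5.99, 6.35 and 6.77 in the 6 remaining E2P4T arrays, and 6.35, 6.88 and 8.04 in CO. All groups overlapped. Whether treatment changed the nephron genes was tested in limma over all 24016 probe sets of the 27 arrays, without a filter on low values. No member passed an adjusted p under 0.05 in the F test over groups, in which 0% of all probe sets passed. Without moderated variances no member passed either. At an unadjusted p under 0.05, 3 of 26 members passed the F test (4.18% of all probe sets).

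The contrasts with CO, which share the CO arrays, also gave no adjusted call among the members. For E2T, no member passed the adjusted threshold (0% of all probe sets) and 2 passed unadjusted (8.11% of all). For P4T, no member passed adjusted (0%) and 1 unadjusted (4.4%). For E2P4T, no member passed adjusted (0.00416%, a single probe set of all) and 4 unadjusted (7.35%). For the interaction of estradiol and progesterone, no member passed adjusted (0%) or unadjusted (2.76% of all). The unadjusted calls of members were all towards lower levels in treated liver, and so were most of those over all probe sets (1511 lower and 437 higher in E2T, 760 and 296 in P4T, 1377 and 387 in E2P4T).

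The median log2 fold change of the members was -0.23 for E2T, -0.24 for P4T and -0.24 for E2P4T, against -0.15, -0.06 and -0.14 over all probe sets, but it was above 0 for E2T and E2P4T after quantile normalization (0.03 and 0.02) and after median centring (0.04 and 0.01). In each contrast 20 of 26 members were below 0, and of all probe sets 37.1% (E2T), 43.0% (P4T) and 38.2% (E2P4T) were above 0. Without CO replication 7 the medians were -0.08, -0.03 and -0.03. Without P4T replication 4 the median for P4T was -0.56. Single genes moved too: in P4T, UMOD went from -1.14 to -1.71, SCNN1A from -1.10 to -1.52 and RHBG from -0.37 to -0.74. Each of these was then past the unadjusted threshold but not the adjusted one. The share of all probe sets past the unadjusted threshold was not taken for that fit. SLC7A9 went from -0.02 to 0.53 and passed neither.

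**Figure D4:**
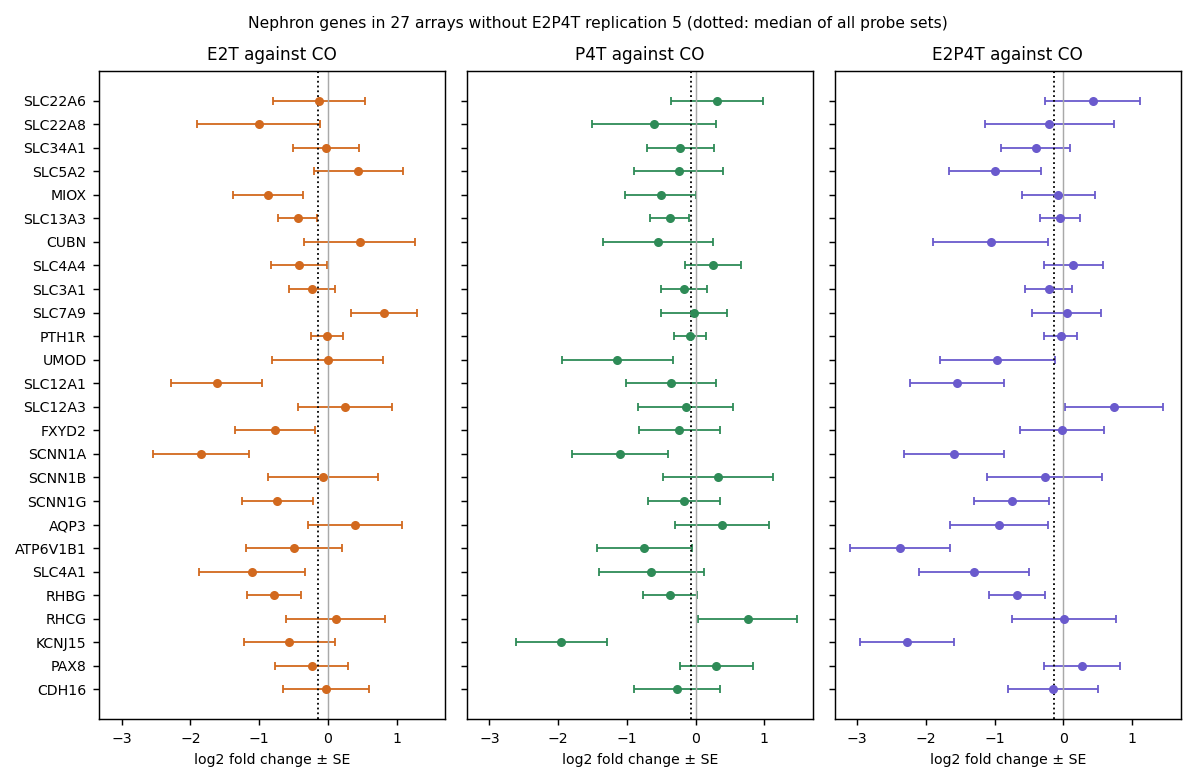
Log2 fold change against CO with its standard error (bars) for each nephron gene in E2T, P4T and E2P4T, from the limma fit of 27 arrays without E2P4T replication 5. The dotted line is the median of all probe sets (-0.15, -0.06 and -0.14), and no gene passed an adjusted p under 0.05 in any contrast.

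The 3 members with the lowest F test p were KCNJ15, ATP6V1B1 and SLC12A1. KCNJ15 had log2 signals (lowest, median and highest array) of 4.78, 6.24 and 6.83 in E2T, 2.35, 4.24 and 8.04 in P4T, 3.22, 4.01 and 5.90 in E2P4T, and 5.79, 6.67 and 7.34 in CO. All 6 E2P4T arrays and 6 of 7 P4T arrays were below the CO mean, the exception being P4T replication 4, and the groups overlapped. The log2 fold change of KCNJ15 was -2.28 ± 0.69 (SE) in E2P4T (limma adjusted p = 0.67) and -1.96 ± 0.66 in P4T (limma adjusted p = 0.998). Without P4T replication 4 the P4T value was -2.52 ± 0.58 (limma adjusted p = 0.39). In E2T it was -0.56 ± 0.66. These values depend on the probe set. With the mean over the probe sets of KCNJ15, the log2 fold change was -1.23 in P4T, -1.89 in E2P4T and -0.88 in E2T. The paper, with its mixed model, lists KCNJ15 among the genes most lowered by both hormones together. Progesterone alone is also listed there as lowering it, with contrast p-values not adjusted for the number of genes. The genes listed there had first passed the paper's own test over groups, for which it states a false discovery rate.

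ATP6V1B1 had 2.58, 4.87 and 7.04 in E2P4T, against 5.63, 7.02 and 8.92 in CO. Its log2 fold change was -2.38 ± 0.72 in E2P4T (limma adjusted p = 0.67). All 6 E2P4T arrays were below the CO mean. SLC12A1 had 2.00, 5.39 and 6.48 in E2T and 2.85, 5.42 and 6.79 in E2P4T, against 5.26, 6.88 and 8.25 in CO. The fitted log2 fold change of SLC12A1 was -1.62 ± 0.66 in E2T (limma adjusted p = 0.58) and -1.55 ± 0.69 in E2P4T (limma adjusted p = 0.67). Its unadjusted call in E2T was lost without E2T replication 5 (-1.10) or CO replication 7, and that in E2P4T without E2P4T replication 3 (-1.08), CO replication 3 or CO replication 7. The medians of these 3 genes in every group were within the range of the trpn controls, and their groups overlapped.

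**Figure D5:**
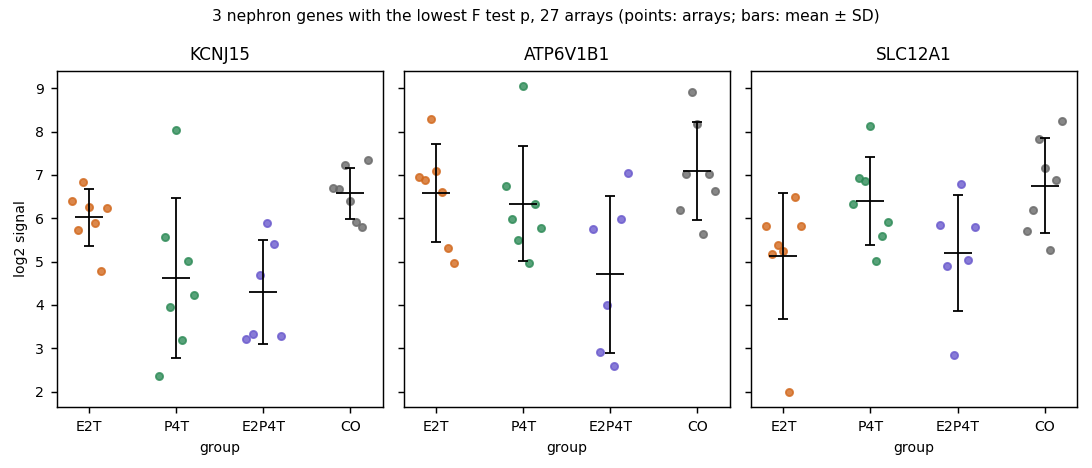
Log2 signal of KCNJ15, ATP6V1B1 and SLC12A1 on each of the 27 arrays by group (points), with the mean and SD as bars. The E2P4T means are 4.31, 4.71 and 5.21, against CO means of 6.58, 7.09 and 6.76, with overlap between the groups.

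The fourth unadjusted call in E2P4T was SCNN1A, at 2.26, 6.85 and 7.22, against 6.77, 6.99 and 8.91 in CO. Its log2 fold change was -1.59 ± 0.73 in E2P4T (limma adjusted p = 0.67) and -1.85 ± 0.70 in E2T (limma adjusted p = 0.58). The lowest value in E2P4T was that of replication 7, without which the log2 fold change was -0.83 ± 0.64 and not past the unadjusted threshold. The call in E2P4T was also lost without CO replication 1, 3 or 7, whereas that in E2T stayed with each array left out. The other channel subunits had log2 fold changes in E2P4T of -0.27 ± 0.84 (SCNN1B) and -0.75 ± 0.54 (SCNN1G), neither past the unadjusted threshold.

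The 5 members with the highest median over the 27 arrays did not pass the unadjusted threshold in any contrast of the fit of all 27. RHBG had 10.76, 11.39 and 13.47 in E2T, 11.14, 12.08 and 14.36 in P4T, 11.34, 11.57 and 13.10 in E2P4T, and 11.82, 12.56 and 13.62 in CO. Relative to CO, RHBG differed by -0.79 ± 0.39 in E2T, -0.37 ± 0.39 in P4T and -0.67 ± 0.41 in E2P4T. With single arrays left out, RHBG in E2T passed the unadjusted threshold in 7 of 27 fits. It passed in 1 fit each in P4T (-0.74 ± 0.33 without P4T replication 4) and E2P4T (-0.92 ± 0.41 without E2P4T replication 2). In E2T, MIOX passed in 2 such fits and SLC13A3 and SLC7A9 in 1 each. For fits with an array left out, the share of all probe sets past the threshold was not taken. SLC13A3 had medians of 9.59 in E2T, 9.54 in P4T, 9.80 in E2P4T and 9.86 in CO, within a whole range of 8.36 to 10.89. Its groups overlapped. PTH1R, the steadiest member, had medians of 9.18, 9.04 and 9.08 in E2T, P4T and E2P4T, against 9.49 in CO, and its fold changes lay between -0.08 and -0.02. These rest on CO replication 1, at 7.58 the lowest value of PTH1R, without which E2T differed by -0.29 ± 0.17, P4T by -0.35 ± 0.17 and E2P4T by -0.31 ± 0.18, none past the unadjusted threshold. SLC7A9 had 8.22, 8.93 and 9.22 in E2T, against 7.32, 7.88 and 8.89 in CO, with a log2 fold change of 0.81 ± 0.48. All 7 E2T arrays were above the CO mean for SLC7A9, and the groups overlapped. MIOX had medians of 7.26, 7.79 and 8.09 in E2T, P4T and E2P4T, against 8.34 in CO, with log2 fold changes from -0.87 to -0.07.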

How the data were processed

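The authors isolated mRNA from each biopsy, labelled it with biotin, used 1 Affymetrix Bovine GeneChip per biopsy and summarised the scans with GCOS and MAS5. The deposited table holds linear signal intensity values of 24128 probe sets, of which 112 are controls. Trimmed to the middle 96%, the mean intensity was 1000.2 to 1000.4 on the arrays, so arrays had been scaled to a common value. Symbols came from the platform annotation, and 13292 probe sets had exactly 1 symbol. Signals were set to log2 without a filter or further scaling.

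Groups came from the labels. R 4.3.3 and limma 3.58.1 (lmFit, eBayes with trend, tested on simulated data) fitted 1 coefficient per group to 27 arrays, with Benjamini-Hochberg adjustment over 24016 probe sets and a threshold of 0.05. The mixed model of the methods needs cow and period and was not run. Figures were drawn with matplotlib 3.10.9.

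The members and lists were chosen with earlier results of these data known. Values are given in full for the members with the largest and smallest difference per segment, the 5 brightest and the 3 with the lowest F test p. Outside the members, up to 4 genes per list were named. Only some of the 20 probe sets with the largest and the 20 with the most negative difference were named. Those, and genes named beyond this (CFTR, GATM, TAT, HP, and members with a second probe set or an unadjusted call), were chosen after their values were seen. Alternatives were 2 other scalings, a filter, a pseudocount of 50, unmoderated variances, array weights, a replicate block, other probe set rules and other sets of arrays.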

Additional observations from a re-analysis of the deposited data

Results flagged for a closer look

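In each of the 4 groups, with all 7 arrays, a nephron gene was examined for an array whose gap to its neighbour took up most of the group's range. Chance flags about 1 in 20 groups. In E2T, P4T and CO, 14 of 78 were seen, several of them on the same array and thus not independent, and the 10 in E2P4T were all by E2P4T replication 5.

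E2P4T replication 5 stood above its group in log2 signal for SLC5A2 (10.52), MIOX (13.17), SLC3A1 (10.07), FXYD2 (15.92), SCNN1B (11.71), SCNN1G (13.55), AQP3 (12.03), RHCG (15.25), KCNJ15 (9.89) and CDH16 (14.42). These levels chose the members.

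P4T replication 4 stood above its group for SLC34A1 (8.95), RHBG (14.36) and PAX8 (8.15) and below it for SLC7A9 (4.63). SLC7A9 was also low on E2P4T replication 5, so that these 2 arrays had its lowest values.

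The other values apart were low in all but 1 case. They were SLC22A6 on E2T replication 7 (4.04) and P4T replication 5 (3.96), SLC13A3 on E2T replication 2 (8.37), SLC3A1 and SCNN1G on CO replication 5 (6.03 and 6.11), PTH1R on CO replication 1 (7.58), SLC12A1 on E2T replication 5 (2.00), FXYD2 on E2T replication 6 (4.30) and SCNN1G on E2T replication 4 (4.29). The exception was SLC4A1 on E2T replication 3, which was high (7.14).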

How the results depend on the processing

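No member passed an adjusted p under 0.05 in any test under any alternative that was run. The number of members past an unadjusted F test p of 0.05, 3 as given, was 0 with all 28 arrays, 1 with the mean over the probe sets of a gene, and 1 to 5 when single arrays were left out (1 without E2P4T replication 2 and 5 without E2T replication 3). It was 4 with the replicate block, and the median log2 fold change in E2P4T was then -0.36. The matching shares of all probe sets past the F test were not taken for these alternatives. Same-numbered arrays had correlations of deviations of -0.09 to 0.26, over 0.1 in 11 of 39 pairs, with a median of 0.03 against -0.01 for other numbers. The labels do not say what a number marks and not every pair was over 0.1, so the numbers were not taken as pairs, although 10 of 27 arrays correlated best with their own number, where 3.86 would without any relation, a hint from the data and not from the design. With all 28 arrays, the median log2 fold change in E2P4T was 0.14. The members' median difference on E2P4T replication 5 was 3.52 after median centring and 4.01 with a pseudocount of 50. Over these alternatives 18 to 22 members were above all other arrays, without the matching share over all probe sets. KCNJ15, ATP6V1B1 and SLC12A1 were lower in all 3 treatments under every alternative that tested them, but with the pseudocount their 5 values past the unadjusted threshold, -2.38 to -1.55 as given, were -1.16 to -0.77. With the filter, 19 members were tested, KCNJ15 not among them. For 20 of 26 members the median was within the range of control probe sets, although above their median, which limits what a group change could show.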

Other observations

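Among probe sets with 1 symbol, the 20 with the largest difference on E2P4T replication 5 included 6 of members and 3 of the other kidney list, and the others were outside both lists. They included MAL, a sorting protein of the apical membrane (10.22), S100G, the calcium-binding protein calbindin-D9k (10.18), TINAG, a basement membrane antigen of the kidney tubule (8.86), and TSPAN1, a tetraspanin (8.35). Transcription factors of the homeobox family were there too, HOXA9 with 13.83 on E2P4T replication 5, against 2.10 to 8.77 on the others, and HOXB4 with 13.17, against 1.77 to 8.27. SLC9A3, the apical sodium-hydrogen exchanger, had 11.13 at 1 probe set, against 1.49 to 8.41, while its brighter probe set, used in the list, had 7.12, against 2.66 to 8.66.

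The 20 most negative were led by liver genes. APOB, the protein of very low density lipoproteins, had 5.00 on E2P4T replication 5, against 14.93 to 16.11, and ARG1, the last enzyme of the urea cycle, had 4.09, against 12.33 to 15.35. CRP (-10.23), ORM1 (-10.02), SLC10A1, the bile acid uptake carrier (-8.25), and CYP1A2 (-8.17) followed the same direction. HAVCR1, known as kidney injury molecule in the kidney, was also among them, at 6.17 on E2P4T replication 5, against 10.66 to 16.15 on the others.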
